A study of Mus musculus with 6 samples.

Results

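The AP-1 and early growth response factors are 10 transcription factor genes chosen by name: Fos, Fosb, Fosl1, Fosl2, Jun, Junb, Jund, Egr1, Egr2 and Atf3. A probe set assigned to that gene symbol alone existed for 9 of the 10, among 22180 genes tested on the array. Fosl1 had no probe set of its own and is described here only through one that it shares with the neighbouring gene Ccdc85b. The study compared PIM1 with control cells among mouse prostate epithelial cancer cells of the genotype Rb1F/F:Trp53F/F:PB-Cre4. Floxed Rb1 and Trp53 alleles are deleted in such mice by Cre under the probasin promoter, which is active in prostate epithelium, and both groups share that background. EV cells (3 arrays, EV-1 to EV-3) had received an empty lentiviral vector and PIM1 cells (3 arrays, PIM1-1 to PIM1-3) a lentivirus for PIM1, a serine/threonine kinase. All cells grew in DMEM with charcoal-stripped serum, insulin, pituitary extract, cholera toxin and epidermal growth factor, which is itself a known inducer of AP-1 and EGR genes. The labels give no age of the mice, time after transduction, clone number or species of the PIM1 insert, and they do not say whether the arrays of a group came from separate cultures. The p-values therefore measure the spread between these arrays, which may be technical.

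AP-1 is not a single protein but a family of dimers. JUN proteins (JUN, JUNB, JUND) pair with each other or with FOS proteins (FOS, FOSB, FOSL1, FOSL2), and with ATF3, through a basic leucine zipper, and the dimers bind short palindromic DNA sites in genes for proteases, cytokines and growth control. EGR1 and EGR2 are zinc finger factors that bind GC-rich sites and are restrained by the NAB corepressors. Most of these genes are immediate-early genes: growth factors, cytokines and stress switch their transcription on within minutes through MAP kinases, serum response factor and CREB, without new protein synthesis, and their RNAs are short-lived. Arrays without a time course, as here, therefore give a level at harvest, and whether it includes a recent induction was not tested.

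Pim1 signal, on the log2 scale used throughout, was 5.26, 6.25 and 5.23 in EV and 7.11, 6.89 and 6.97 in PIM1 cells, and the groups did not overlap. A dimmer second Pim1 probe set read 2.05, 2.27 and 2.64 in EV and 3.06, 3.32 and 2.61 in PIM1 cells, where EV-3 and PIM1-3 overlapped (limma adjusted p = 0.0933 over all probe sets). Neither need detect the introduced sequence, since its species is not given. Of all 22180 genes, 27.0% passed a limma adjusted p of 0.05, 16.1% higher and 10.9% lower in PIM1 cells. The median PIM1-minus-EV difference over all genes was -0.05. In bins of mean signal that median ran between -0.14 and 0.19, with the brighter 11090 genes at 0.10 and the remaining genes at -0.12, so small differences are read against this drift. Brightness, here and below, is the mean over all 6 arrays, so a gene high in PIM1 cells alone can be among the brighter. No detection call exists for these values, and a low signal holds an unknown share of background.

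Of the 9 measured members, 7 rose in PIM1 cells and 0 fell, beside 16.1% of all genes that rose. Junb rose most, 2.38-fold, followed by Jun (2.10-fold), Fosl2 (1.81-fold), Fos (1.77-fold), Atf3 (1.61-fold), Jund (1.35-fold) and Egr1 (1.33-fold), while Fosb and Egr2 were not called. The median difference of the 9 members was 0.68 on the log2 scale. For the same 7 genes every PIM1 array lay above every EV array, as it did for 22.3% of all genes. Among the brighter 11090 genes, where 34.5% were higher, 7 of 8 members were called. Fos, at 3.80 in EV cells, lay below the median of all genes there (3.99) and entered through its PIM1 arrays (4.62). The uncalled Fosb did not enter. That count therefore partly follows the rise of Fos. In bulk RNA more cells expressing a gene and more RNA per cell cannot be told apart.

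**Figure D1:**
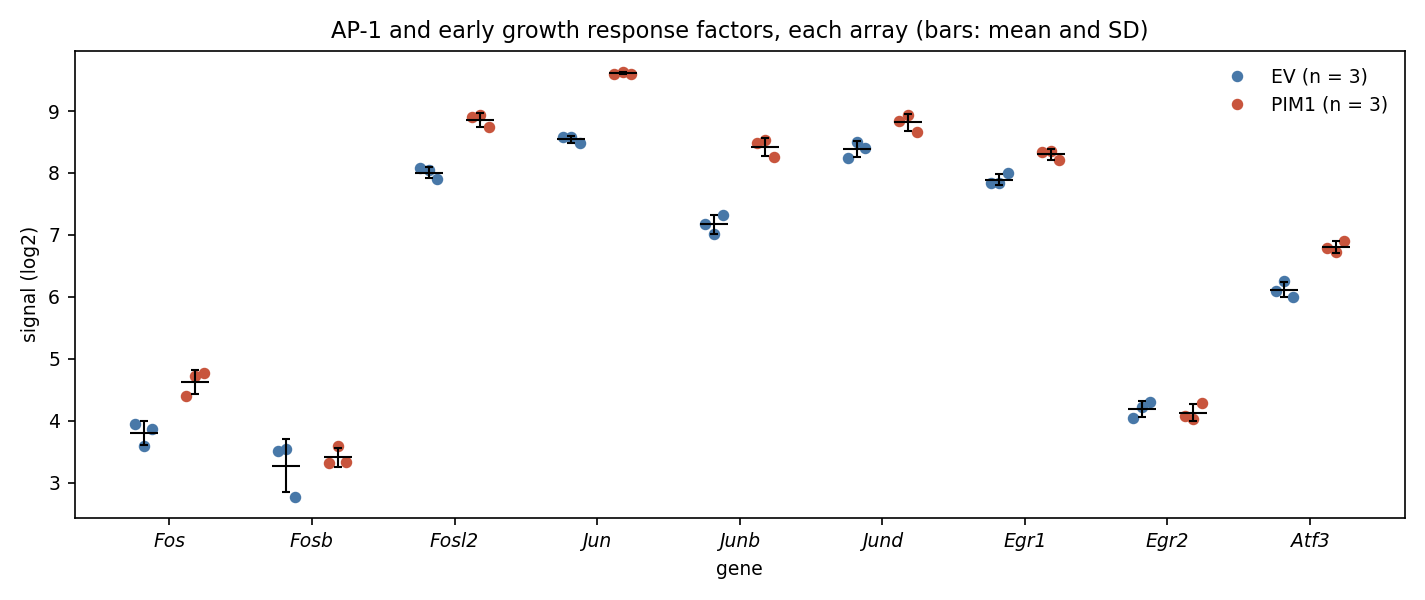
Signal on the log2 scale (vertical axis) of the 9 measured members on each of the 3 EV and 3 PIM1 arrays, with a long bar at the group mean and error bars of 1 SD. Every PIM1 array lies above every EV array for Fos, Fosl2, Jun, Junb, Jund, Egr1 and Atf3, and the groups overlap for Fosb and Egr2. Heights of different genes come from different probes and are not compared.

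The JUN genes encode the main partners of FOS proteins. Jun, the strongest activator among them, read 8.58, 8.58 and 8.48 in EV and 9.61, 9.63 and 9.60 in PIM1 cells. The PIM1 arrays were nearly equal and all stood above the EV arrays by far more than the spread within either group. The Jun difference was 1.07 (standard error 0.0918, limma adjusted p = 8.85e-05). Junb, whose protein activates more weakly than JUN and can restrain it, read 7.17, 7.01 and 7.32 in EV and 8.48, 8.53 and 8.26 in PIM1 cells. The gap between the lowest PIM1 and the highest EV array was larger than either group's range. The Junb difference was 1.25 (standard error 0.124, limma adjusted p = 1.90e-04). Jund, often the most stable JUN gene in resting cells, read 8.24, 8.49 and 8.41 against 8.85, 8.94 and 8.66, with narrower separation. Its difference was 0.44 (standard error 0.118, limma adjusted p = 0.0275).

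The Jund call was the least firm among the JUN genes. It did not pass after quantile normalization (limma adjusted p = 0.0561), after cyclic loess (0.0528) or without EV-1, EV-3, PIM1-1 or PIM1-2 (0.0740, 0.0525, 0.0904 and 0.105). A dimmer Jund probe set read 4.88, 4.82 and 5.11 in EV and 5.28, 5.72 and 4.56 in PIM1 cells, where PIM1-3 was below all EV arrays, and with both probe sets averaged the difference was 0.34 (limma adjusted p = 0.196). Jun and Junb passed under each of the 15 alternative settings and left-out arrays, with differences from 1.01 to 1.17 and from 1.16 to 1.35.

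The start regions of Jun and Junb, the members with the largest rises, are printed because these genes can be bound by AP-1 and CREB-type factors themselves. Sequences are the RefSeq windows of assembly GRCm38.p6, 250 bases before and 50 after an annotated start, 5′ to 3′ on the gene's strand, at chr4:95052173-95052472 (minus strand) for Jun and chr8:84978699-84978998 (minus strand) for Junb. Capitals mark matches, on either strand, to the AP-1 site TGANTCA, a CRE core TGACGT, an extended CRE TGACNTCA, an EGR site GCGNGGGCG, a STAT site TTCNNNGAA, the TATA box TATAAA, the CArG box of serum response factor or the NF-kappaB site. The CRE core overlaps the extended CRE where both fall on the full palindrome.
Jun: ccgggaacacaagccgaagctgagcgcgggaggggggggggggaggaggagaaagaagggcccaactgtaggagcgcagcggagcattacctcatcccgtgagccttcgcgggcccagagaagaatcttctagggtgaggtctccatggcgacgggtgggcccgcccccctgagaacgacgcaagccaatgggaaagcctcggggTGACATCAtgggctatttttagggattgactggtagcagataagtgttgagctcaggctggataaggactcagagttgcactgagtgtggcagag
Junb: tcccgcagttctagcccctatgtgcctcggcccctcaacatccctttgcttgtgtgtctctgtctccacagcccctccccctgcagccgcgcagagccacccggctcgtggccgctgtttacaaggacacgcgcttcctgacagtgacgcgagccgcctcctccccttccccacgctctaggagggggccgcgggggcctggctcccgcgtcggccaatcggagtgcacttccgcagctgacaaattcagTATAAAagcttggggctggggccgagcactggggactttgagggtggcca
In the Jun window an extended CRE lay at bases 206 to 213 (8.83% of all 32851 windows hold one). In the Junb window the TATA box letters were the only match, at bases 251 to 256 (13.6% of windows). These bases begin at the annotated start and do not lie before it.

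FOS proteins cannot pair with each other and act mainly with JUN proteins. Fosl2, which encodes FRA2, a FOS protein that lacks a strong activation domain and is typical of lasting rather than acute AP-1, read 8.07, 8.05 and 7.90 in EV and 8.90, 8.94 and 8.74 in PIM1 cells. The groups were well apart. The Fosl2 difference was 0.85 (standard error 0.106, limma adjusted p = 6.53e-04). Fos, the classic immediate-early member, read 3.95, 3.59 and 3.86 in EV and 4.40, 4.71 and 4.76 in PIM1 cells. All PIM1 arrays were higher, although both groups lay near the median signal of all genes in EV cells (3.99), where background takes a larger share of the value. The Fos difference was 0.82 (standard error 0.143, limma adjusted p = 0.00365). Fosl2 and Fos passed under each of the 15 alternatives, from 0.77 to 0.95 and from 0.72 to 0.94.

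Fosb, an acute partner closely related to Fos, read 3.51, 3.54 and 2.77 in EV and 3.32, 3.58 and 3.32 in PIM1 cells. The groups overlapped, and EV-3 was the lowest array. Its difference was 0.13 with a 95% interval from -0.34 to 0.61 (limma adjusted p = 0.676), an interval that still holds a rise of about the size of the Jund or Egr1 difference. Without EV-3 the Fosb difference was -0.12, and it was not called there either. The shared probe set of Fosl1, which encodes FRA1, and Ccdc85b was higher in PIM1 cells, and its signal cannot be assigned to either gene.

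The windows at the start of the FOS genes are shown for the pair that rose and for Fosb, which was not called. They lie at chr12:85473640-85473939 (plus strand) for Fos, chr5:32136222-32136521 (plus strand) for Fosl2 and chr7:19309996-19310295 (minus strand) for Fosb, with the same source and capitals as for Jun.
Fos: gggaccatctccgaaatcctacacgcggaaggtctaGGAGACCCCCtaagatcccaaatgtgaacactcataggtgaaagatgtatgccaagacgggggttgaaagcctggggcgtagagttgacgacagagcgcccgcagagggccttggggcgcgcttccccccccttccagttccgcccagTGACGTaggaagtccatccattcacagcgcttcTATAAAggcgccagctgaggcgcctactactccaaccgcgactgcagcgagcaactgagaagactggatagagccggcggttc
Fosl2: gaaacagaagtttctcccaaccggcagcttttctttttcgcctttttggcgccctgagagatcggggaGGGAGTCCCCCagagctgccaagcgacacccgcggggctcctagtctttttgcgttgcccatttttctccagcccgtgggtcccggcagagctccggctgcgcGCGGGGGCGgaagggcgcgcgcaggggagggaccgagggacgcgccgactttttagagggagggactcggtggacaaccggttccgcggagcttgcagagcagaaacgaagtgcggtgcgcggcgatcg
Fosb: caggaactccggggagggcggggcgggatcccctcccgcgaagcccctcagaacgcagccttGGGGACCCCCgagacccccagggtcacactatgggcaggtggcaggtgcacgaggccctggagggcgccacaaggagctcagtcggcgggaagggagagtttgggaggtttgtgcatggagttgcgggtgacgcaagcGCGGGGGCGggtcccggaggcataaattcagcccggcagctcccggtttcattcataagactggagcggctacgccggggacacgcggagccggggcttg
The Fos window held a CRE core at bases 185 to 190 (7.51% of all windows), a TATA box at bases 218 to 223 and an NF-kappaB site at bases 37 to 46 (8.46% of windows). Fosl2 and Fosb each held an EGR site, at bases 172 to 180 and 201 to 209 (5.55% of windows), and an NF-kappaB site. An EGR site was thus present in the window of a FOS gene that rose and in that of one that was not called. Matches describe letters in these windows and show neither binding nor use.

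Atf3 encodes a stress-induced basic leucine zipper factor that pairs with JUN proteins and mostly represses as a homodimer. It read 6.10, 6.25 and 6.0 in EV and 6.79, 6.72 and 6.90 in PIM1 cells. The groups were separate. The Atf3 difference was 0.68 (standard error 0.109, limma adjusted p = 0.00233), and it passed under each of the 15 alternatives, from 0.54 to 0.78. Its start window, at chr1:191183284-191183583 (minus strand), is printed as that of the stress-linked member.
Atf3: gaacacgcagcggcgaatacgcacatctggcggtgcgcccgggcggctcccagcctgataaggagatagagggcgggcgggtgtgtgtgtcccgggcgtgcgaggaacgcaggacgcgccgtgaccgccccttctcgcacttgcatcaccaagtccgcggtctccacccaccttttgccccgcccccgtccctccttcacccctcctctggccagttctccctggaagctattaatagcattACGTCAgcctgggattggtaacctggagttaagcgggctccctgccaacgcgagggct
A CRE core on the opposite strand lay at bases 243 to 248, beside the annotated start. Over the 8 members with a scanned window, 12 windows in all, the AP-1 and STAT sites matched in 0 (7.81% and 8.30% of all windows). The CArG box matched in 4 of the 5 windows of Egr2 alone (1.63% of all windows), of which 3 overlap and hold the same site. Egr1 and Fosl1 were not scanned, so nothing is said of their sites.

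Egr1, the zinc finger factor that growth factors induce through serum response factor, rose by a small amount. It read 7.85, 7.83 and 7.99 in EV and 8.34, 8.36 and 8.21 in PIM1 cells, so the groups were apart by little more than their ranges. The Egr1 difference was 0.41 (standard error 0.101, limma adjusted p = 0.0193), with a 95% interval from 0.17 to 0.64. It did not pass after quantile normalization (0.32, limma adjusted p = 0.0560) or without EV-1, EV-2, PIM1-1 or PIM1-2 (limma adjusted p = 0.0502, 0.0527, 0.0748 and 0.0778). Egr2, a relative best known from Schwann cells and lymphocytes, read 4.04, 4.22 and 4.30 in EV and 4.08, 4.02 and 4.28 in PIM1 cells. The groups overlapped throughout, the difference was -0.06 and its 95% interval ran from -0.33 to 0.21 (limma adjusted p = 0.752), and centring on the median of all probe sets turned it to 0.04.

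After quantile normalization 5 of the 9 members were called, beside 13.9% of all genes that were higher, and after cyclic loess 6, beside 14.7%. Jun, Junb, Fosl2, Fos and Atf3 were the 5 that passed under every alternative tried. The plot of differences shows that both normalizations lowered 6 of the 7 rises and left that of Fos slightly larger.

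**Figure D2:**
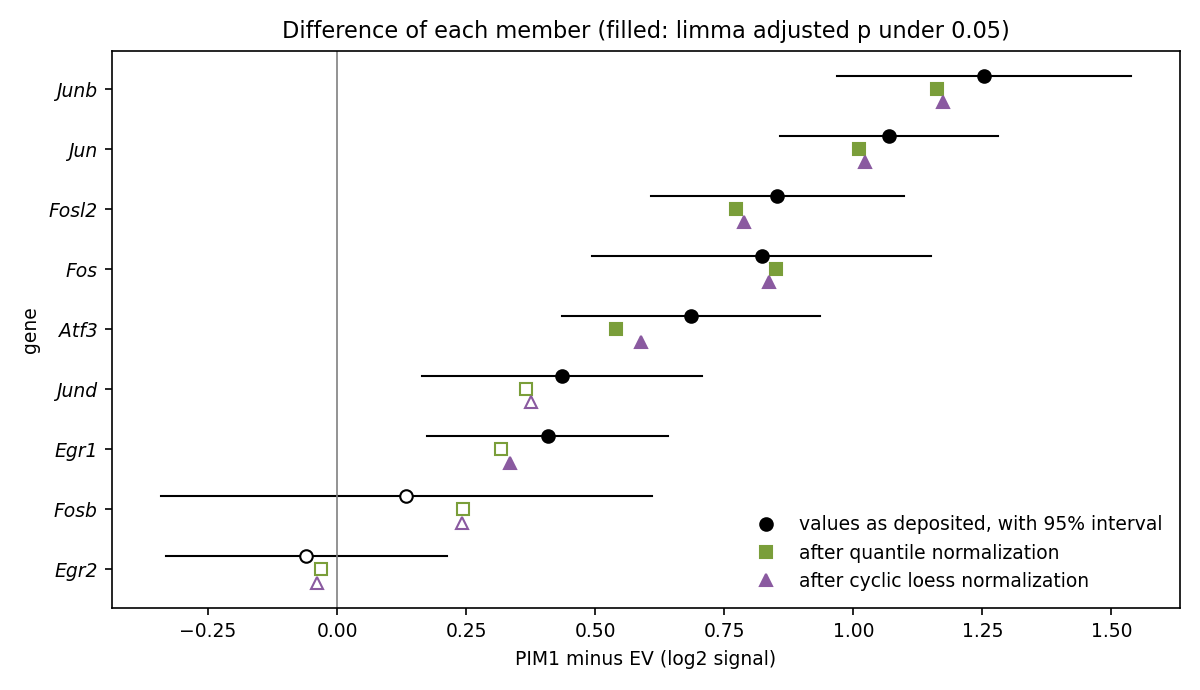
PIM1-minus-EV difference in log2 signal (horizontal axis) for each member, ordered by size, on the values as deposited (circles, with 95% intervals from limma) and after quantile (squares) or cyclic loess (triangles) normalization. Filled symbols have a limma adjusted p under 0.05. Jund loses its call under both normalizations and Egr1 under quantile normalization, while Junb, Jun, Fosl2, Fos and Atf3 stay filled.

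**Figure D3:**
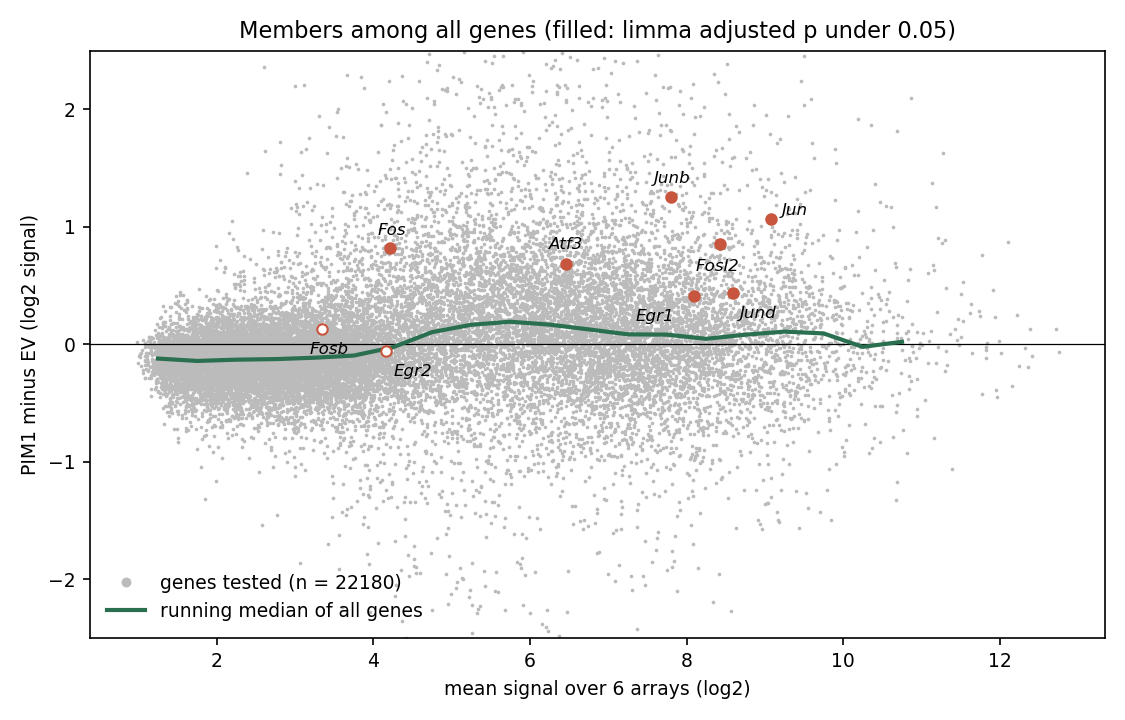
PIM1-minus-EV difference (vertical axis, log2 signal) against the mean signal over the 6 arrays (horizontal axis, log2) for 22180 genes (grey), with the median in bins of signal (line, between -0.14 and 0.19) and the 9 members in red, filled where called. Junb and Jun stand far above the line and Jund and Egr1 closer to it, and 175 genes beyond 2.5 in either direction are not drawn.

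Members of the same family were also set against each other within each array, which cancels scaling common to the array. Drift that depends on signal is not cancelled in ratios of a bright to a dim gene, such as Fosl2 to Fosb. The median difference of all genes was 0.05 at signals of 8.0 to 8.5, near Fosl2, and -0.11 at 3.0 to 3.5, near Fosb. The Junb-to-Jund log2 ratio was 0.82 higher in PIM1 cells and the Jun-to-Jund ratio 0.63 higher, each with all 3 PIM1 arrays above all 3 EV arrays (exact permutation p = 0.1, two-sided, the smallest that 3 against 3 arrays allow). The Junb-to-Jun ratio differed by 0.18 and overlapped between the groups (exact permutation p = 0.2). The Fosl2-to-Fosb and Egr1-to-Egr2 ratios were 0.72 and 0.47 higher without overlap (exact permutation p = 0.1 each), and the Fos-to-Fosb ratio was 0.69 higher with overlap (exact permutation p = 0.2). None of these 7 ratios, with Egr1 to Egr3 below, passed 0.05, and after adjustment over the 7 the values were 0.14 to 0.2. The unequal rises within the JUN family are therefore given as sizes only.

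The genes closest to Junb in pattern over the 6 arrays, by the root mean square difference of centred log2 values, were Col6a2 (0.0474), a collagen VI chain gene, Dusp22 (0.0531), a dual-specificity phosphatase gene, Ssbp4 (0.0639) and Ifitm5 (0.0674). All 4 were called higher, by 1.17 to 1.34. The measure mostly reflects a similar step between the groups.

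Some of the other basic leucine zipper genes whose products can pair with FOS or JUN proteins rose too. Among the 14 that were measured, 5 rose and 0 fell, beside 16.1% and 10.9% of all genes. The median difference was 0.13 beside -0.05 for all genes. Of the 12 among the brighter 11090 genes, 4 were higher and 1 lower, where 34.5% of genes were higher and 2075 were lower. With the trended and robust variance, and without EV-1, 1 gene was called lower. Mafk, a small MAF gene whose protein lacks an activation domain, read 5.64, 5.50 and 5.42 in EV and 6.15, 6.09 and 6.23 in PIM1 cells and rose by 0.64 (limma adjusted p = 0.00261). Batf2, an interferon-inducible BATF factor, read 2.96, 3.01 and 2.90 against 3.87, 3.90 and 3.33 and rose by 0.74 at a low signal (limma adjusted p = 0.00994). Atf7, a factor related to ATF2, rose by 0.43, and Batf3 and Maff, named after their values were seen, rose by 0.62 and 0.77. Without PIM1-2 the list held 2 calls and without PIM1-3 it held 3, and Mafk and Batf2 were the only ones called in all alternatives that tested them. Atf4, the amino acid stress factor, was at -0.30 and not called.

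The remaining EGR factors and their corepressors moved in different directions. Egr3, a close relative of Egr1 that the same signals usually induce, read 6.33, 6.26 and 5.90 in EV and 5.63, 5.53 and 5.48 in PIM1 cells. It fell by 0.61 (standard error 0.132, limma adjusted p = 0.0105), the groups did not overlap, and it passed under each of the 15 alternatives. The Egr1-to-Egr3 log2 ratio was accordingly 1.02 higher in PIM1 cells, without overlap (exact permutation p = 0.1). Nab1, which encodes a corepressor of EGR proteins, read 6.83, 7.08 and 7.08 against 7.49, 7.44 and 7.41 and rose by 0.45 (limma adjusted p = 0.0163), a call lost without PIM1-1 or PIM1-2, where the list held 1 call. Nab2, the corepressor gene that EGR1 activates, differed by 0.32 (limma adjusted p = 0.0553), and averaged over its probe sets by 0.74, where it was called. Egr4 differed by -0.30 (limma adjusted p = 0.0810).

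Immediate-early genes outside the family moved in both directions. Of 29 measured, 11 rose and 7 fell, beside 16.1% and 10.9% of all genes, with a median difference of 0.03. Of the 27 among the brighter 11090 genes, 11 were higher and 9 lower, where 34.5% of genes were higher and 2075 were lower. Sgk1, a kinase gene induced by serum and glucocorticoids, read 5.66, 5.32 and 5.30 in EV and 7.59, 7.44 and 7.44 in PIM1 cells and rose 4.18-fold (limma adjusted p = 1.35e-05). Zfp36, which encodes the RNA-destabilizing protein tristetraprolin, rose by 1.09, and Ier3, a survival-linked stress response gene, by 1.12. No array of the groups overlapped for these genes.

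Against them stood 7 falls. Ccn2, the connective tissue growth factor gene, read 5.98, 6.20 and 6.47 in EV and 4.84, 4.74 and 5.04 in PIM1 cells and fell 2.54-fold (limma adjusted p = 3.22e-04). The orphan nuclear receptor genes Nr4a1 and Nr4a2, which growth signals induce beside Egr1, fell by 0.99 and 0.94. Klf10, a TGF-beta-inducible Krueppel-like factor gene, fell by 0.79 and Gadd45g, a stress response gene, by 0.88. Plk2, a polo-like kinase gene, and Arc, best known from neurons, fell by 0.44 and 0.42. The Plk2 call was lost without PIM1-1 or PIM1-2, and that of Arc under 8 of 15 alternatives, among them each left-out array except EV-2, while the other 5 held in all 15. Myc, the growth-control factor gene, differed by -0.07 and Ier2, a classic early gene, by -0.10, and neither was called.

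**Figure D4:**
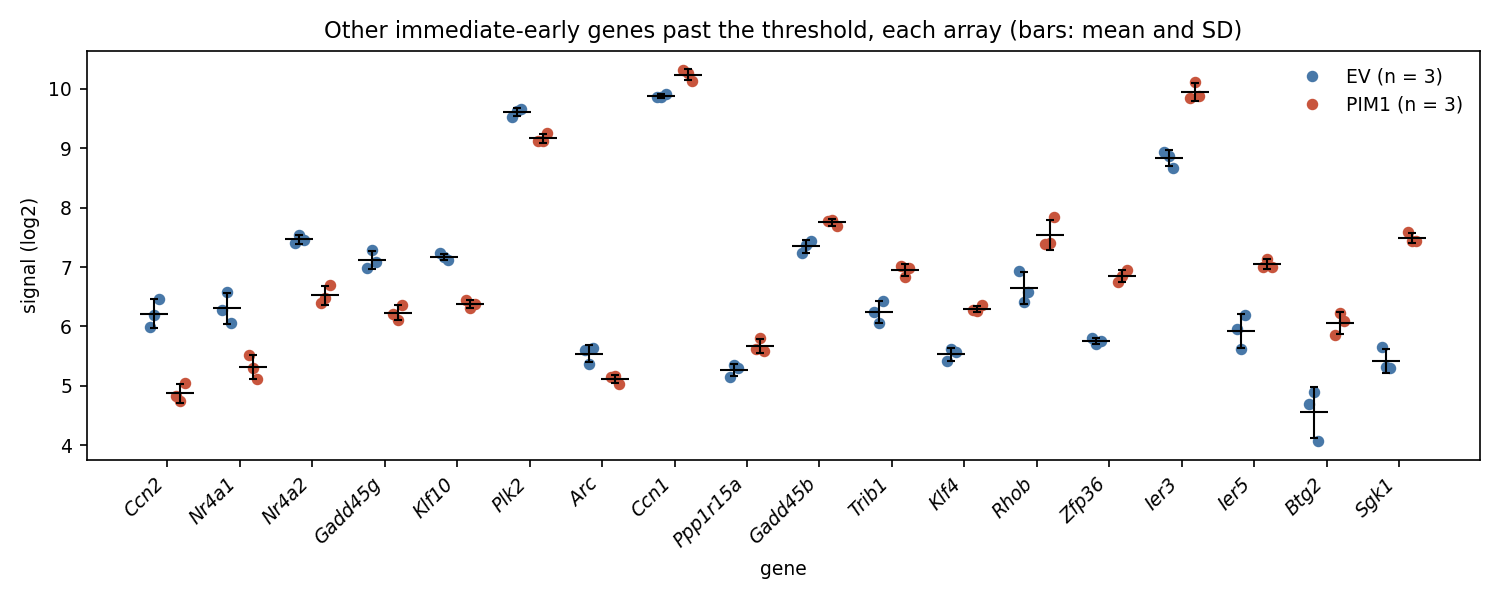
Signal on the log2 scale (vertical axis) of the 18 other immediate-early genes that passed the threshold, ordered from the largest fall to the largest rise, on each of the 3 EV and 3 PIM1 arrays, with group means and error bars of 1 SD. The 7 genes from Ccn2 to Arc are lower and the 11 from Ccn1 to Sgk1 higher in PIM1 cells.

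Upstream, MAP kinases phosphorylate the factors that switch these genes on, and serum response factor (Srf) acts with ELK and MRTF cofactors. Of 20 measured genes of this cascade, 5 rose and 3 fell, beside 16.1% and 10.9% of all genes, and the median difference was -0.04. All 20 were among the brighter 11090 genes, where 34.5% of genes were higher and 2075 were lower. Tested there, 5 were higher and 5 lower. After quantile normalization 4 were higher and 5 lower, beside 13.9% of all 22180 genes that were higher and 2430 that were lower. Egfr, the receptor for the epidermal growth factor in the medium, read 8.75, 8.62 and 8.50 in EV and 9.36, 9.29 and 9.35 in PIM1 cells and rose by 0.71 (limma adjusted p = 0.00147). Mrtfa, an actin-regulated cofactor of serum response factor, rose by 0.84 (limma adjusted p = 5.72e-04), and Elk3, Map2k1 and Elk1, named after their values were seen, rose by 0.44, 0.44 and 0.37. The Map2k1 call was lost without PIM1-2, and that of Elk1 under 8 of 15 alternatives, among them runs without EV-1, EV-2, PIM1-1 or PIM1-2. Rps6ka3, which encodes the ERK-activated kinase RSK2, fell by 0.77 (limma adjusted p = 7.66e-04). Srf itself read 8.37, 8.55 and 8.66 against 7.92, 8.15 and 7.90 and fell by 0.54 (limma adjusted p = 0.0129), a call lost without PIM1-1. Mrtfb fell by 0.45, but averaged over its probe sets it was at -0.08 and not called.

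Genes that MAP kinase signalling induces, and whose products mostly switch it off again, were divided. Of 18 measured, 8 rose and 4 fell, beside 16.1% and 10.9% of all genes, with a median difference of 0.14. All 18 were among the brighter 11090 genes, where 34.5% of genes were higher and 2075 were lower. Tested there, 8 were higher and 5 lower. Dusp1, an immediate-early phosphatase gene that acts mainly on p38 and JNK, read 7.42, 7.36 and 7.31 in EV and 8.46, 8.49 and 8.59 in PIM1 cells and rose 2.22-fold (limma adjusted p = 7.50e-05). Dusp16, a JNK-directed phosphatase gene, rose 2.49-fold (limma adjusted p = 3.06e-05). Spry1, a receptor tyrosine kinase feedback inhibitor gene, read 7.85, 8.12 and 7.88 against 6.45, 6.36 and 6.33 and fell 2.97-fold (limma adjusted p = 2.77e-05). Dusp5, a nuclear ERK phosphatase gene, fell 2.18-fold (limma adjusted p = 1.26e-04). Dusp4 and Dusp2, also nuclear phosphatase genes, fell by 0.84 and 0.48. The Dusp4 call was lost without EV-2, EV-3 or any PIM1 array, and that of Dusp2 in 8 of 15 alternatives, among them each left-out array except PIM1-2.

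Genes that AP-1 is known to control showed large differences of both signs. Of 17 measured, 9 rose and 4 fell, beside 16.1% and 10.9% of all genes, with a median difference of 0.62. All 17 were among the brighter 11090 genes, where 34.5% of genes were higher and 2075 were lower. Tested there, 9 were higher and 5 lower. As brightness includes the PIM1 arrays, Il6 (2.18 in EV, 6.59 in PIM1) entered only through them, so the higher count partly follows its rise. Il6, an inflammatory cytokine gene, read 2.06, 2.18 and 2.32 in EV and 6.58, 6.64 and 6.56 in PIM1 cells and rose 21.2-fold, a fold that rests on a low EV signal (limma adjusted p = 1.60e-07). Mmp13, a collagenase gene with an AP-1 site much studied in its promoter, rose 24.4-fold, and Ccl2, a monocyte chemokine gene, 23.9-fold. The urokinase gene Plau, another standard AP-1 target, read 8.30, 8.34 and 8.38 against 5.50, 5.30 and 5.64 and fell 7.27-fold (limma adjusted p = 1.67e-06). Sprr1a, a cornified envelope gene, fell 3.42-fold, and the EGF family ligand genes Ereg and Hbegf fell 2.73-fold and 1.37-fold. The Hbegf call was lost under 5 of 15 alternatives, among them runs without EV-3 or any PIM1 array. Cd44 and Ccnd1, a hyaluronan receptor and a cyclin gene, were at -0.18 and -0.07 and not called. Many of these genes also answer to NF-kappaB or STAT3, and which factor acts on them was not tested.

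Of 13 measured genes that EGR1 is known to control, 5 rose and 2 fell, beside 16.1% and 10.9% of all genes. Their median difference was 0.32. Of the 10 among the brighter 11090 genes, 6 were higher and 1 lower, where 34.5% of genes were higher and 2075 were lower. Fgf2, a fibroblast growth factor gene, read 4.72, 5.17 and 4.72 in EV and 6.87, 6.91 and 6.95 in PIM1 cells and rose 4.10-fold (limma adjusted p = 2.38e-05). Hpse, the heparanase gene, rose 3.80-fold, or by 1.16 on the log2 scale in place of 1.92 when its probe sets were averaged. Flt1, a VEGF receptor gene, and Ptges, a prostaglandin synthase gene, both named after their values were seen, rose by 1.51 and 0.34 beside Nab1, which this list shares with the previous one. The Ptges call was lost in 10 of 14 alternatives, among them every left-out array. Thbs1, the thrombospondin gene, and Pdgfb, a platelet-derived growth factor gene, fell by 0.82 and 0.92. Tgfb1 and Fn1, standard targets, were at 0.17 and -0.02 and not called.

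**Figure D5:**
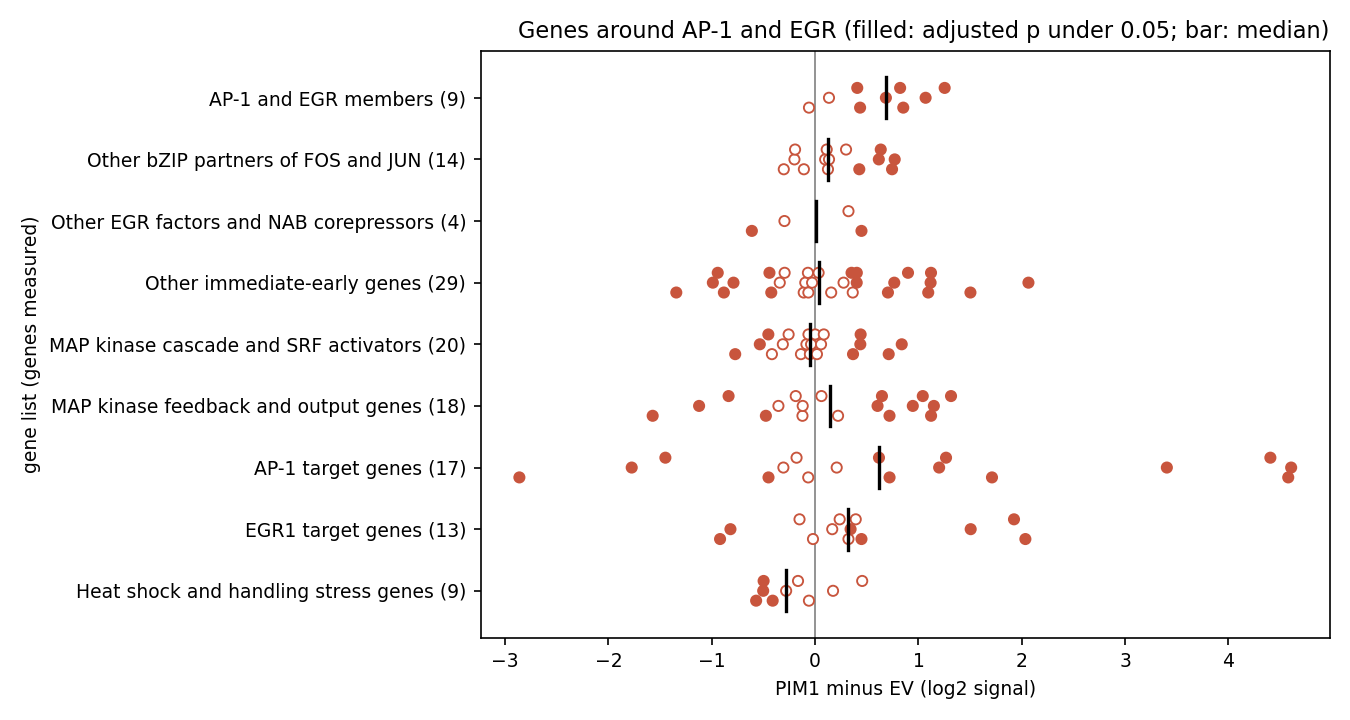
PIM1-minus-EV difference in log2 signal (horizontal axis) of every measured gene of the members and of 8 lists around them, 1 point per gene, filled where the limma adjusted p was under 0.05, with a bar at each list's median. The members lie almost wholly to the right of 0 (median 0.68), whereas other immediate-early genes (0.03) and MAP kinase feedback genes (0.14) spread to both sides.

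Heat shock genes encode chaperones and their helpers. Of 9 measured, 0 rose and 4 fell, beside 16.1% and 10.9% of all genes, with a median difference of -0.28. Hspd1 fell by 0.57 (limma adjusted p = 0.00420), and Hsph1, Hspe1 and Hspa1b, the last named after its values were seen, fell by 0.50, 0.41 and 0.50. Hspd1 and Hspe1 act in mitochondria and Hsph1 and Hspa1b in the cytosol. Hspb1, a small heat shock protein gene named after its values were seen, was at 0.46 and not called (limma adjusted p = 0.0635), although all PIM1 arrays were above all EV arrays. Hspd1 alone was called in all alternatives. A single heat shock gene was called higher with median centring, among the brighter genes and without EV-1, and centring on the median of all probe sets left 1 rise and 1 fall. The list held 1 call without EV-3, PIM1-1 or PIM1-2.

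Markers of cell types differed between the same arrays. The mean level of 11 fibroblast markers was 6.07 to 6.12 on the EV arrays and 7.80 to 7.87 on the PIM1 arrays. Of these 11, 9 rose and 1 fell, beside 16.1% and 10.9% of all genes. The mean level of 7 epithelial markers was 4.46 to 4.57 in EV and 3.58 to 3.65 in PIM1 cells. Of these 7, 0 rose and 3 fell, beside the same shares of all genes. Cdh1 read 5.21 in EV and 4.27 in PIM1 cells and Krt19 4.28 and 3.56, both called lower (limma adjusted p = 0.00179 and 0.0321). Epcam (2.50 in EV, 2.35 in PIM1) and Trp63 (2.83 and 2.96) were low in both groups and not called. Krt18, a simple-epithelium keratin gene with the largest fall of that list, read 9.14 in EV and 4.90 in PIM1 cells, while its partner Krt8 read 4.73 and 4.65 and was not called. The leukocyte list mean (7 measured) was 3.58 to 3.78 in EV and 3.46 to 3.68 in PIM1 cells, where Cd14, also known outside leukocytes, rose 4.58-fold, Csf1r fell 2.54-fold and the pan-leukocyte marker Ptprc read 2.07 and 1.87. The smooth muscle list mean (6 measured) was 4.56 to 4.77 and 4.14 to 4.25, where Cnn1 rose by 0.62 while Tagln and Actg2 fell by 1.56 and 1.19. The endothelial list mean (6 measured) was 2.74 to 2.84 and 2.55 to 2.75, with 0 genes called by limma and 1 (Cldn5, lower) at an unadjusted p under 0.05. AP-1 genes are expressed in fibroblasts as well as epithelium, and the part of this shift in the members' differences was not tested.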

How the data were processed

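RNA from 3 EV and 3 PIM1 samples was measured on Affymetrix whole-transcript mouse arrays. The authors deposited 1 value per probe set and array, used unchanged and read as log2 signal from their range (0.34 to 13.0), as no source used here states the log base. The submitters' processing notes name Affymetrix Expression Console. Background correction, summarization and normalization were not given in the sources used here. Precision is limited by the number of arrays.

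Of 41345 probe sets, the platform annotation gave 23521 a single gene symbol, 1814 several and 16010 none, and 23328 matched RefSeq by Entrez identifier. Each of 1082 genes with several probe sets kept the one with the highest mean, which left 22180 genes. limma 3.58.1 in R 4.3.3 compared the groups (lmFit, eBayes, two-sided, Benjamini-Hochberg over all genes, threshold 0.05), checked on simulated arrays. "Rose" and "fell" mean past that threshold.

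The members and lists were chosen with earlier results of these data known. Named are all members, Pim1, the 3 smallest p of each list (a whole list under 5 genes), list members called against the majority, and the 4 genes closest in pattern to the largest called rise. Atf4, Myc, Ier2, Cd44, Ccnd1, Tgfb1, Fn1, the single cell type markers and those so marked were chosen after their values were seen. List genes lacking an unshared probe set were not analysed here. Of 10 members, 8 had a RefSeq promoter window in the scan, which left out a chromosome. Fosl1 and Egr1 were not scanned.

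Results were recomputed with another variance model (trended, robust), quantile or cyclic loess normalization, median centring, the brighter 11090 genes, probe sets averaged or tested singly, replicate number as block, and each array left out. Centring on the median of all probe sets and the ratios of related genes were added after seeing the data.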

Additional observations from a re-analysis of the deposited data

Results flagged for a closer look

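The probe set shared by Fosl1, which encodes the FOS family protein FRA1, and its neighbour Ccdc85b drew attention as a signal outside the genes tested. It read 8.01, 8.11 and 7.98 in EV and 8.62, 8.54 and 8.48 in PIM1 cells, a difference of 0.51 (standard error 0.102, limma adjusted p = 0.0176 over all probe sets). The groups did not overlap. The share of either gene in this signal was not tested.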

How the results depend on the processing

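Across 15 alternatives the 9 members gave 134 differences, of which 120 kept their side of the threshold and 14 did not, all of the latter for Jund (8) and Egr1 (6). Members called numbered 5 to 7 with an array left out. Heat shock genes called were 2 with centring on the median of all probe sets, 2 over all probe sets and 1 to 3 with an array left out. Partners of FOS and JUN called were 2 to 6 and EGR factors with NAB genes 1 to 2 with an array left out. Centring on the median of all probe sets moved the share of higher among called genes from 59.6% to 73.5% (median of all genes 0.05 in place of -0.05), with 7 members called in each case. Same-numbered arrays of the groups did not deviate together (correlations 0.0558, -0.0314 and 0.00875), so the numbers were not taken as pairs. With the replicate number as a block 5321 genes and 6 members were called, and Egr1 was not (limma adjusted p = 0.0513).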
